A study of Mus musculus with 7 samples.

Results

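The endothelin and angiotensin genes Edn1, Edn3, Ednra, Ednrb, Ece1, Agt, Agtr1a and Ace were followed in RNA sequencing counts from the left atria of adult mice of the outbred CD1 strain. They were chosen by name, as ligands, converting enzymes and receptors of both systems, with earlier results of these data known. All 8 were found among the 24421 gene rows. The labels give 4 libraries the genotype FOG2 overexpression and 3 the genotype WT. All came from animals that the protocol calls DTG and NTG, without expanding the terms, reared off doxycycline for 1 week; the sources used here do not give what drives FOG2, nor the sex and litter of the mice. FOG2 is a cofactor of GATA transcription factors and is encoded by Zfpm2. Zfpm2 held 31.7, 30.9 and 29.4 CPM (counts scaled to a common library total) in wild type replicates 1 to 3, against 140.1, 222, 262 and 246 CPM in overexpression replicates 1 to 4.

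Endothelins are short vasoactive peptides. They are cut from precursors by endothelin-converting enzymes, of which Ece1 encodes the main one, and they signal through G protein-coupled receptors, ETA (Ednra) on muscle cells and fibroblasts and ETB (Ednrb), best known on endothelial cells. Angiotensinogen (Agt) is cut by renin and then by angiotensin-converting enzyme (Ace) to angiotensin II, which acts through the AT1 receptor (Agtr1a). In the heart both peptides are known for effects on contraction, fibroblast activation and muscle growth.

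Gene counts came to between 5562520 and 8655655 per library, so that 1 count was worth 0.111 to 0.174 CPM. Overexpression replicate 1 stood apart: its correlation across genes with the rest of its group was 0.947 to 0.949, where the other 3 reached 0.978 to 0.983 among themselves. Y-linked transcripts were found in wild type replicate 2 and overexpression replicate 1 (3943 and 4908 counts) and had 0 to 4 counts elsewhere. Of 13 tested markers of atrial cardiomyocytes 6 were called lower and 0 higher, and the list summed to 157145 to 183882 CPM in wild type against 97435 to 138131 CPM in overexpression. Of 15 markers of mural cells (pericytes and smooth muscle) edgeR called 3 higher, Acta2 (log2 fold change 5.05), Cspg4 (1.34) and Notch3 (0.62), and 0 lower. The 12 not called ranged from Abcc9 (-0.20), the only marker of the list below 0, to Tagln (2.12). At an unadjusted p under 0.05 in edgeR, 8 were higher and 0 lower, and DESeq2 called 5 higher and limma-voom 2. The mural sums were 1276 to 1569 against 2121 to 2701 CPM. Without Des and Acta2, the most abundant of them, they were 644 to 750 against 780 to 1012 CPM. Of 15 endothelial markers edgeR called 0 (1 higher and 1 lower at an unadjusted p under 0.05; DESeq2 called 1 lower and limma-voom 0), and the sums overlapped at 2590 to 2949 and 2293 to 2885 CPM. Of 13 fibroblast markers edgeR called 0 (6 higher at an unadjusted p under 0.05; DESeq2 called 1 higher and limma-voom 0), and the sums overlapped at 11934 to 16483 and 16279 to 19613 CPM. No marker of these 4 lists was at 0 in every library. Over all genes tested, edgeR called 1.55% higher and 3.29% lower.

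The 3 receptor genes fell in atria overexpressing FOG2, and the gene of the main endothelin ligand, Edn1, was higher in every overexpression library without passing the test. Ednra, which encodes ETA, and Agtr1a, which encodes AT1a, were 2.34-fold and 2.29-fold lower, and Ednrb, which encodes ETB, was 1.61-fold lower. These 3 decreases kept their direction under each scaling tried, but the Ednrb call ended with library totals alone. The Ednrb and Agtr1a calls ended with libraries scaled to sarcomere genes. Of those 25 genes 24 were themselves below 0 and 5 were called lower. They summed to at most 133600 CPM in overexpression libraries and at least 142759 CPM in wild type. Scaling to genes that fall raises all log2 fold changes, so calls of lower lost there cannot test these decreases. In bulk tissue, fewer cells of a type and less RNA per cell cannot be told apart, and the part of the marker levels above in these results was not tested. Ece1, Agt and Ace, the genes of the converting enzymes and of the angiotensin precursor, did not pass the test, and Edn3 had too few counts to be tested.

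Of the 7 genes tested, edgeR's quasi-likelihood test called 0 higher and 3 lower (adjusted p, threshold 0.05). Over all 13295 genes tested, 4.84% were called, 1.55% as higher and 3.29% as lower. Higher genes were 32.0% of these calls, and 60.2% when libraries were scaled by their totals alone. At an unadjusted p under 0.05, 1 of the 7 was higher (Edn1) and 3 were lower, where 19.2% of all genes passed, 9.14% as higher and 10.05% as lower. DESeq2 likewise called 1 higher and 3 lower, against 2.93% and 4.52% of all genes, and limma-voom 0 and 3, against 1.38% and 3.27%. In 4 of the 7 the libraries of the groups did not overlap, 1 with overexpression higher and 3 with it lower; this held for 19.8% of all genes tested, 8.99% higher and 10.8% lower. The median log2 fold change was -0.04 over the 7 genes and 0.02 over all genes. Because the genes were chosen with earlier results of these data known, their counts beside these shares are a description only.

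**Figure D1:**
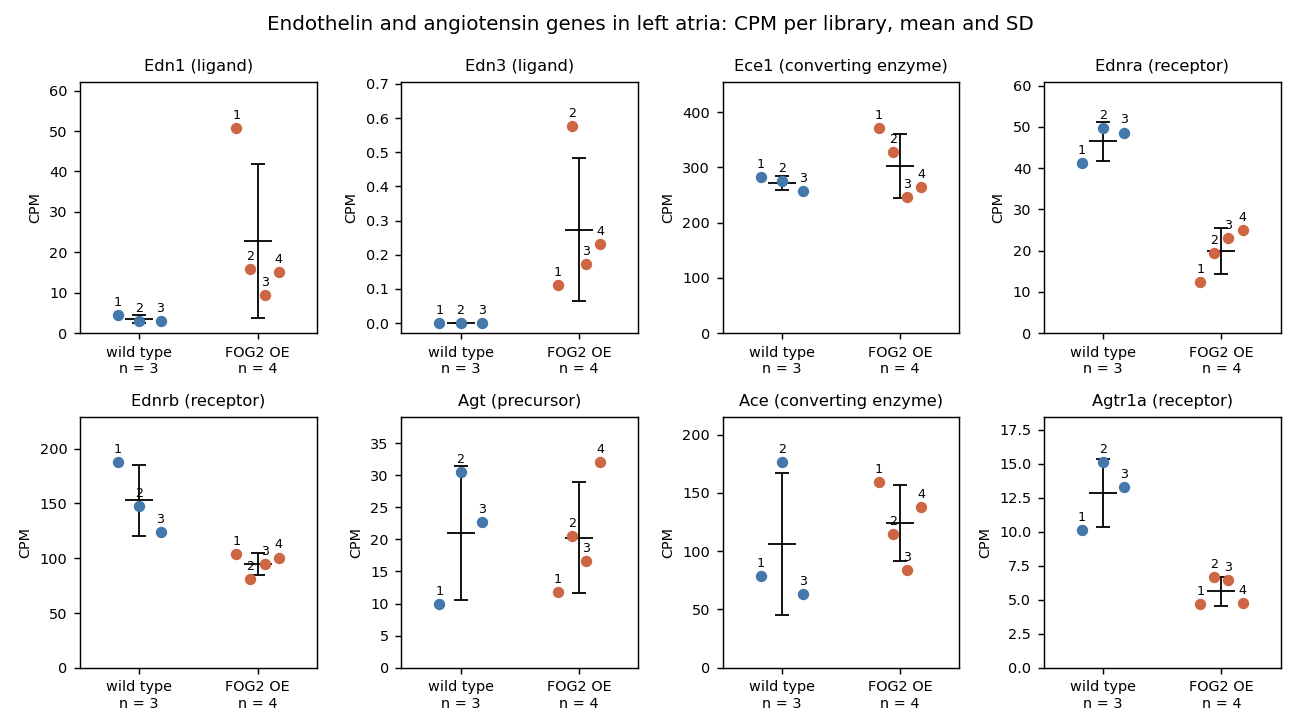
Level of each of the 8 genes in CPM (y axis, a separate scale per panel) in the 3 wild type and 4 FOG2 overexpression (FOG2 OE) libraries. Points are libraries numbered by replicate, bars show the mean and SD; Ednra, Ednrb and Agtr1a do not overlap between the groups, and Edn1 reaches 50.9 CPM in overexpression replicate 1.

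The DNA at the start of Edn1 is shown because Edn1 had the largest difference of the 7 genes, and that of Ednra because it had the largest decrease. Both follow RefSeq's start sites on GRCm38.p6, the mm10 assembly. The Edn1 stretch, chr13:42301356-42301505 on the plus strand, runs from 120 bases before the start to 30 after it. The Ednra stretch, chr8:77724453-77724572 on the minus strand, holds the 120 bases before the start. Capitals mark a match to GATAA, a form of the letters bound by GATA factors, which reads in reverse on this strand. The letters gatag in the Ednra stretch hold GATA without the last A and are not marked.
Edn1: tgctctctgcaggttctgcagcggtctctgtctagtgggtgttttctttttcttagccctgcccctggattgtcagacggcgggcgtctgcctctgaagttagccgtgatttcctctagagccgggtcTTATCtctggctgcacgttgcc
Ednra: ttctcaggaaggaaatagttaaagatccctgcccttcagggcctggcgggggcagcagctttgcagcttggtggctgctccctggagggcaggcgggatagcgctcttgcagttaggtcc

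Windows from 250 bases before to 50 after a RefSeq start were searched on both strands for the GATA core GATAA, for the T-box core GGTGTG and for the AP-1 site TGANTCA. RefSeq windows were at hand for 7 of the 8 genes, all but Agtr1a. Edn1 held the only match to GATAA among them, from base 9 to base 13 after the start, and with the next base it also matches AGATAA. Forms that end otherwise, such as GATAG, were not searched. The GATA core was in 25.4% of all 32851 windows, and the longer form in 11.2%. The T-box core was found upstream of Ece1, in 2 windows that overlap, and of Ace, and was in 19.05% of all windows. The AP-1 site TGANTCA, held by 7.81% of all windows, was in no window of the 7 genes. Other forms of that site, and bases outside the windows, were not searched. A match is a description of the letters and shows no binding.

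Edn1 (chr13:42301476-42307990, plus strand) encodes endothelin-1, the main endothelin of the heart, known from endothelial cells. Wild type replicates 1 to 3 held 4.53, 2.97 and 2.96 CPM, and overexpression replicates 1 to 4 held 50.9, 15.7, 9.39 and 15.1 CPM. All 4 overexpression libraries lay above all 3 wild type libraries, and replicate 1 lay far above the other 3. The means were 3.48 ± 0.907 CPM (SD, n = 3) and 22.8 ± 18.9 CPM (SD, n = 4). The log2 fold change was 2.71, with a standard error of 0.63 (edgeR adjusted p = 0.0511) and a 95% interval from 2.41-fold to 17.9-fold, and it exceeded that of 99.7% of the genes tested. When overexpression replicate 1 was left out, it was 1.94 ± 0.26 (SE; edgeR adjusted p = 0.00111). Leaving out any other library gave an edgeR adjusted p between 0.0326 and 0.218, and under 0.05 for overexpression replicates 3 and 4.

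The 5 libraries without Y-linked transcripts gave Edn1 a log2 fold change of 1.85 (edgeR adjusted p = 0.00493). In overexpression replicate 1, where Edn1 was highest, Zfpm2 was the lowest of its group. The summed level of 8 markers of epicardium and mesothelium there was 869 CPM, against 444 to 589 in the other overexpression libraries and 436 to 500 in wild type. The endothelial markers, summed, were 2885 CPM in that library, within the wild type range of 2590 to 2949 CPM. The other overexpression libraries held 2293 to 2624 CPM. Without Vwf, the most abundant of these markers, that library held 2398 CPM, above the 1971 to 2310 CPM of wild type. The part of these values in the Edn1 level was not tested. An antisense gene on the minus strand, Gm47118, shares 35 exon bases with Edn1, and whether the counting used strand is not given in the sources used here.

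Edn3 (chr2:174760619-174784042, plus strand) encodes endothelin-3, a ligand of ETB known from neural crest development, and was near the limit of detection. It had 0 counts in each wild type library and 1, 4, 1 and 2 counts in overexpression replicates 1 to 4. The 8 counts of the overexpression group stood for 0.264 CPM, with an exact 95% Poisson interval of 0.114 to 0.521 CPM that covers counting error only. The 0 counts of the wild type group allow up to 3 counts, or 0.127 CPM, which lies within that interval. With no filter on low counts, edgeR gave Edn3 an adjusted p = 0.193, so a difference was not detectable at this depth.

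Ece1 (chr4:137862237-137965229, plus strand), which encodes the membrane protease that releases the active endothelins, was the highest of the 8 genes per kilobase. Wild type libraries held 282, 276 and 258 CPM and overexpression libraries 372, 329, 245 and 264 CPM. The groups overlapped, with overexpression replicates 1 and 2 above wild type and replicate 3 below it. The log2 fold change was 0.15 ± 0.15 (SE; edgeR adjusted p = 0.615), with a 95% interval from 0.882-fold to 1.41-fold.

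Ednra (chr8:77663031-77724464, minus strand) encodes ETA, the receptor through which endothelin-1 contracts muscle. It stood at 41.1, 49.9 and 48.65 CPM in the wild type libraries and at 12.4, 19.4, 23.1 and 25.02 CPM in the overexpression libraries. Every overexpression library was lower than every wild type library, with replicate 1 the lowest. The mean fell from 46.5 ± 4.72 to 19.99 ± 5.56 CPM, a log2 fold change of -1.22 ± 0.21 (SE; edgeR adjusted p = 0.0127). The mural cell markers had a median log2 fold change of 0.35 in the same libraries, the fibroblast markers 0.40 and the atrial cardiomyocyte markers -0.51. With wild type replicate 2 or 3 left out the call ended (edgeR adjusted p = 0.0676 and 0.0529), while the log2 fold change stayed at -1.17 and -1.19. With overexpression replicate 1 left out the log2 fold change was -1.04 (edgeR adjusted p = 6.49e-04). A transcript annotated on the plus strand, 4933431K23Rik, shares 91 exon bases with Ednra.

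Ednrb (chr14:103814625-103844402, minus strand) encodes ETB, a receptor that clears endothelin and triggers nitric oxide release in endothelial cells. Wild type libraries held 188, 147 and 124 CPM, and overexpression libraries 104, 81.0, 94.99 and 101 CPM. The groups did not overlap, though the lowest wild type and the highest overexpression library were close. The mean fell from 153 ± 32.4 to 95.1 ± 10.03 CPM, a log2 fold change of -0.68 ± 0.15 (SE; edgeR adjusted p = 0.0337). Endothelial markers had a median log2 fold change of -0.01, and the 9 tested markers of endocardium and lymphatic endothelium -0.12. These 9 ranged from Cytl1 (-0.94) to Reln (0.96), with 6 below 0 and 3 above. The sums of that list overlapped at 1547 to 1700 CPM in wild type and 1312 to 1572 CPM in overexpression. Without Npr3, the most abundant, they were 447 to 626 and 382 to 458 CPM. Schwann cell markers, another type in which Ednrb is known, had a median log2 fold change of 0.54, with 6 of 7 tested above 0. They summed to 103 to 114 CPM in wild type against 130 to 161 CPM in overexpression. Without Mbp the sums overlapped at 48.2 to 62.0 and 51.8 to 92.6 CPM. The call on Ednrb was lost in 7 of 19 alternatives, and those on Ednra and Agtr1a in 2 and 3. Its edgeR adjusted p reached 0.133 and 0.112 when wild type replicates 1 and 2 were left out, and 0.0838, 0.0829 and 0.0671 when overexpression replicates 2, 3 and 4 were. It was 0.0635 when libraries were scaled by their totals alone. Scaling to sarcomere genes, themselves lower in overexpression, moved the median of all genes to 0.46. With that scaling the log2 fold change of Ednrb was -0.26 (edgeR adjusted p = 0.264).

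**Figure D2:**
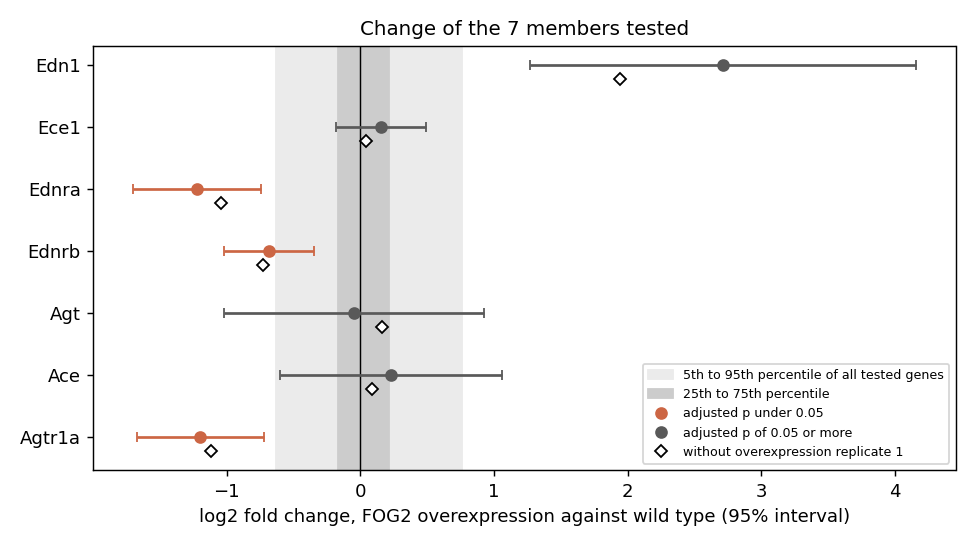
Log2 fold change of FOG2 overexpression against wild type (x axis) for the 7 genes tested, with 95% intervals as bars; open diamonds give the value without overexpression replicate 1 and grey bands the spread of all genes tested. Ednra (-1.22), Agtr1a (-1.20) and Ednrb (-0.68) lie below the 5th percentile of all 13295 genes tested (-0.63), and Edn1 (2.71) above the 95th (0.76).

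Because Ednra and Ednrb are counted in the same library, their ratio needs no scaling between libraries. Ednra made up 17.99%, 25.3% and 28.3% of the counts of both receptors in wild type replicates 1 to 3. Its share was 10.7%, 19.3%, 19.6% and 19.9% in overexpression replicates 1 to 4. The exact 95% binomial intervals (Clopper-Pearson, counting error only) spanned 16.3% to 19.8% in wild type replicate 1 and 8.91% to 12.8% in overexpression replicate 1. Overexpression replicates 2 to 4 lay close together and replicate 1 was lower, while wild type replicate 1 lay just below those 3, so the groups overlapped. The mean log2 ratio was -1.70 ± 0.44 (SD, n = 3) in wild type and -2.29 ± 0.51 (SD, n = 4) in overexpression, a difference of -0.59 (exact permutation test, two-sided, p = 0.257; the smallest p that the 35 arrangements allow is 0.0286). The difference was -0.34 when overexpression replicate 1 was left out and -0.84 when wild type replicate 1 was. Both receptor genes fell, and an unequal fall was not shown.

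**Figure D3:**
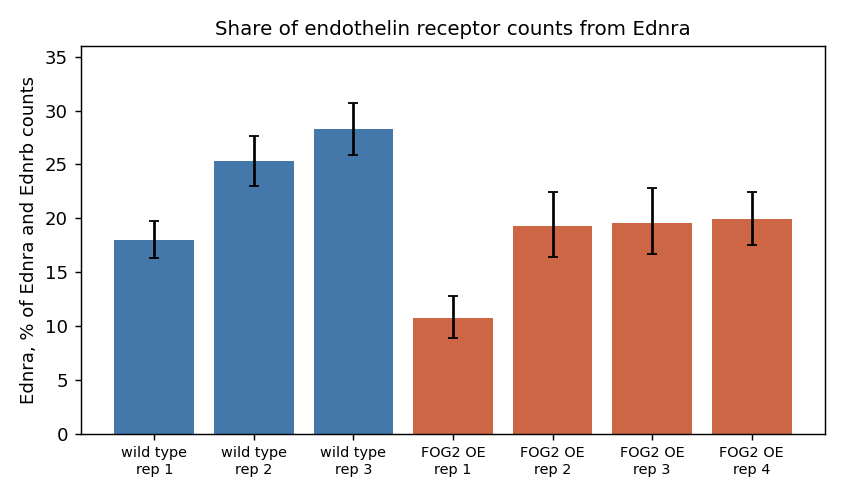
Share of Ednra in the summed counts of Ednra and Ednrb (y axis, percent) in each library, with exact 95% binomial intervals as bars. Overexpression replicates 2 to 4 hold 19.3% to 19.9%, overexpression replicate 1 holds 10.7%, and wild type ranges from 17.99% to 28.3%.

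Agt (chr8:124556534-124569706, minus strand) encodes angiotensinogen, the precursor of all angiotensins, which is made mainly by the liver and also by fat and other tissues. Its level was 9.90, 30.5 and 22.7 CPM in the wild type libraries and 11.8, 20.5, 16.7 and 32.0 CPM in the overexpression libraries. It varied widely within each group, and the groups overlapped throughout. The log2 fold change was -0.04 ± 0.42 (SE; edgeR adjusted p = 0.967), and its sign turned with the scaling, to 0.08 with library totals alone. The 95% interval, 0.494-fold to 1.90-fold, is wide. Of 7 adipocyte markers tested, edgeR called 0 (1 lower at an unadjusted p under 0.05), DESeq2 1 lower and limma-voom 0. Lpl and Plin4, which are not confined to fat cells, held 98.7% of the summed adipocyte level; the rest summed to 11.02 to 29.1 CPM in wild type and 1.56 to 81.9 CPM in overexpression, so these markers give no direction.

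Ace (chr11:105967945-105989964, plus strand) encodes the peptidase that forms angiotensin II and degrades bradykinin, known from the surface of endothelial cells. Wild type libraries held 78.9, 176 and 63.6 CPM and overexpression libraries 159, 115, 84.0 and 138 CPM. Wild type replicate 2 was the highest of the 7 libraries, and the other 2 wild type libraries were the lowest. The log2 fold change was 0.23 ± 0.36 (SE; edgeR adjusted p = 0.775; 95% interval 0.659-fold to 2.09-fold), and 0.80 with wild type replicate 2 left out (edgeR adjusted p = 0.212). Gm11651, annotated on the opposite strand, shares 295 exon bases with Ace and had 2 counts over all libraries.

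Agtr1a (chr13:30336441-30382867, plus strand) encodes the AT1a receptor, the main angiotensin II receptor of rodents. It held 10.1, 15.1 and 13.3 CPM in the wild type libraries and 4.66, 6.64, 6.44 and 4.77 CPM in the overexpression libraries. All overexpression libraries were below all wild type libraries. The mean fell from 12.85 ± 2.52 to 5.63 ± 1.06 CPM, a log2 fold change of -1.20 ± 0.21 (SE; edgeR adjusted p = 0.0132). The call ended with wild type replicate 2 left out (edgeR adjusted p = 0.0828), with wild type replicate 3 left out (0.0547), and scaled to sarcomere genes (log2 fold change -0.74, 0.0592). With overexpression replicate 1 left out the log2 fold change was -1.12 (edgeR adjusted p = 0.00881). Its near-identical paralog Agtr1b had 1 count in each group, and reads that fit several places are kept in a row of their own that names no gene, so reads shared by the pair would be lost to both.

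Divided by exon length, the 8 genes can be ranked within a group. In wild type the highest level in CPM per kilobase was that of Ece1 at 51.3 ± 2.39 (SD, n = 3), followed by Ednrb at 35.8 ± 7.59, Ace at 20.1 ± 11.6 and Agt at 11.1 ± 5.50. Below them came Ednra at 8.50 ± 0.862, Agtr1a at 4.61 ± 0.904, Edn1 at 1.63 ± 0.424 and Edn3 with no count. Ranges over libraries overlapped between Ednrb and Ace, between Ace and Agt, and between Agt and Ednra. Within each wild type library Ednrb was above Ace and Ace above Agt, in some only narrowly. Agt and Ednra changed order between libraries, so the order of that pair is not set. In overexpression Ece1 was again the highest, at 57.1 ± 11.04 CPM per kilobase (SD, n = 4), and Ace (23.5 ± 6.11) and Ednrb (22.3 ± 2.35) overlapped. Edn1, at 10.65 ± 8.86, overlapped with Agt (10.7 ± 4.55), the next above it, and with Ednra (3.65 ± 1.01), the next below. Ednra overlapped in turn with Agtr1a at 2.02 ± 0.379. On this scale every wild type library had more Ednra than Edn1. Every overexpression library had more Edn1 than Ednra, though only narrowly in replicate 3.

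Among 27 other genes of both systems, 14 were tested. Against 1.55% of all genes called higher and 3.29% lower, edgeR called 1 and 0 of them. The gene called was Mas1, the receptor for a shorter angiotensin peptide known to oppose angiotensin II. It held 1.07, 0.424 and 0.985 CPM in the wild type libraries and 4.0, 2.46, 2.44 and 2.68 CPM in the overexpression libraries, which did not overlap. It rose by 1.78 ± 0.39 on the log2 scale (SE; edgeR adjusted p = 0.0347), from 20 counts over the wild type group to 90 over the overexpression group. The call ended when any library other than overexpression replicate 1 was left out (edgeR adjusted p = 0.0600 to 0.139), and in the 5 libraries without Y-linked transcripts (0.0972).

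The other 13 genes tested were not called. Agtrap, whose product binds the AT1 receptor and promotes its uptake, stood at 33.5 ± 3.03 CPM in wild type and 25.9 ± 3.16 CPM in overexpression (log2 fold change -0.37, edgeR adjusted p = 0.151). Enpep, an angiotensin-degrading peptidase, stood at 57.3 ± 6.49 and 44.95 ± 3.99 CPM (-0.35, edgeR adjusted p = 0.127). Nr3c2, the mineralocorticoid receptor, through which aldosterone acts, stood at 65.5 ± 7.92 and 46.4 ± 11.7 CPM (-0.50, edgeR adjusted p = 0.213). In these 3 genes all overexpression libraries were lower than all wild type libraries, as in 10.8% of all genes tested. In Atp6ap2, the prorenin receptor, all overexpression libraries were higher, at 70.9 ± 6.10 against 58.3 ± 4.95 CPM (0.28, edgeR adjusted p = 0.188). The same held for 8.99% of all genes tested.

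The median log2 fold change of the 14 genes was 0.14. At an unadjusted p under 0.05 in edgeR, 2 were higher and 3 lower, where 9.14% and 10.05% of all genes passed. DESeq2 and limma-voom each called 1 higher and 0 lower. Over all genes DESeq2 called 2.93% and 4.52%, and limma-voom 1.38% and 3.27%. The renin genes Ren1 and Ren2 had 0 counts in every library. They are a near-identical pair, and reads that fit both would not be counted to either; 4 haemoglobin genes, also in near-identical pairs, were at 0 too, so this 0 sets no limit on renin. Agtr2, the AT2 receptor gene, had 3 counts in wild type and 9 in overexpression and was not tested.

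Of 30 genes that carry signals from these receptors, 29 were tested, with a median log2 fold change of 0.06. Against 1.55% of all genes called higher and 3.29% lower, edgeR called 1 and 0 of them. The gene called was Prkcd, protein kinase C delta. Its level was 24.9, 22.3 and 31.3 CPM in the wild type libraries and 39.99, 42.7, 36.01 and 36.8 CPM in the overexpression libraries, so the groups did not overlap. The log2 fold change was 0.57 ± 0.14 (SE; edgeR adjusted p = 0.0480). When wild type replicate 1 or 2, or overexpression replicate 2, 3 or 4, was left out, its edgeR adjusted p was 0.0805 to 0.204. It was 0.126 with the replicate block, 0.0523 with Y-linked transcripts as covariate and 0.112 in the libraries without them. At an unadjusted p under 0.05 in edgeR, 4 of the 29 were higher and 2 lower, where 9.14% and 10.05% of all genes passed. DESeq2 called 3 and 0, against 2.93% and 4.52% of all genes. Limma-voom called 1 and 0, against 1.38% and 3.27%.

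Of 25 genes known to be induced by endothelin-1 or angiotensin II in heart or vessel cells, 23 were tested. Against 1.55% of all genes called higher and 3.29% lower, edgeR called 1 higher and 0 lower. That gene was Fos, an immediate early transcription factor, at 6.80, 7.49 and 11.2 CPM in the wild type libraries and 49.98, 14.3, 28.4 and 25.6 CPM in the overexpression libraries. Overexpression was higher in all 4 libraries, most in replicate 1. The log2 fold change was 1.80 ± 0.41 (SE; edgeR adjusted p = 0.0492), and the call ended in 10 of 19 alternatives. These were leaving out any wild type library or overexpression replicate 3 or 4 (edgeR adjusted p = 0.0590 to 0.209), limma-voom (0.0740), both other filters (0.0511 and 0.118), the replicate block (0.0867) and the libraries without Y-linked transcripts (0.0835). The 23 genes had a median log2 fold change of 0.55, with 18 above 0 and 5 below. With overexpression replicate 1 left out the median was 0.37, and 4 genes were called higher and 2 lower. That fit called more of all genes too, 3.74% as higher and 4.99% as lower. At an unadjusted p under 0.05 in edgeR, 9 of the 23 were higher and 2 lower, where 19.2% of all genes passed in either direction. DESeq2 called 6 and 0, against 2.93% and 4.52% of all genes. Limma-voom called 1 higher, Cyr61, which encodes a matrix protein, and 1 lower, Nppb, which encodes a natriuretic peptide, and did not call Fos.

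The genes whose levels followed a member most closely over the 7 libraries were found by the smallest root mean square difference between log2 profiles, each centred on its own mean. For Edn1 these were Cyr61 (0.30 log2 units), also on the list of induced genes, Tagln (0.39), which encodes an actin-binding protein of smooth muscle, and Nrg1 (0.395), which encodes the growth factor neuregulin-1. The median difference from Edn1 over 13255 genes was 1.36. Cyr61 held 22.7, 16.8 and 29.8 CPM in the wild type libraries and 352, 94.7, 64.9 and 116 CPM in the overexpression libraries, with replicate 1 far above the others, as in Edn1. Of the 3 genes, Nrg1 passed the test (log2 fold change 2.25, edgeR adjusted p = 0.00592), while Cyr61 (2.76) and Tagln (2.12) had edgeR adjusted p = 0.0566 and 0.0584.

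For Ednra the nearest profiles were those of Lrrc10 (0.14), a cardiac muscle protein gene, Acad12 (0.15) and Doc2g (0.16), against a median of 0.72 over all genes. Like Ednra, all 3 had their lowest level in overexpression replicate 1. Lrrc10 stood at 108 ± 11.5 CPM in wild type and 52.7 ± 17.1 CPM in overexpression (edgeR adjusted p = 0.0526). For Ednrb the nearest were Fam117a (0.11), Ctnnal1 (0.11) and Erc1 (0.12), against a median of 0.44. For Agtr1a they were Ppif (0.17), whose product regulates the mitochondrial permeability pore, Csrp3 (0.18), a muscle LIM protein gene, and Acsl1 (0.18), whose product activates fatty acids, against a median of 0.65. Csrp3 fell from 1384 ± 130.2 to 705 ± 102 CPM (edgeR adjusted p = 0.00514). The libraries share the group difference, so nearness describes a like difference between groups as well as a like spread within them.

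**Figure D4:**
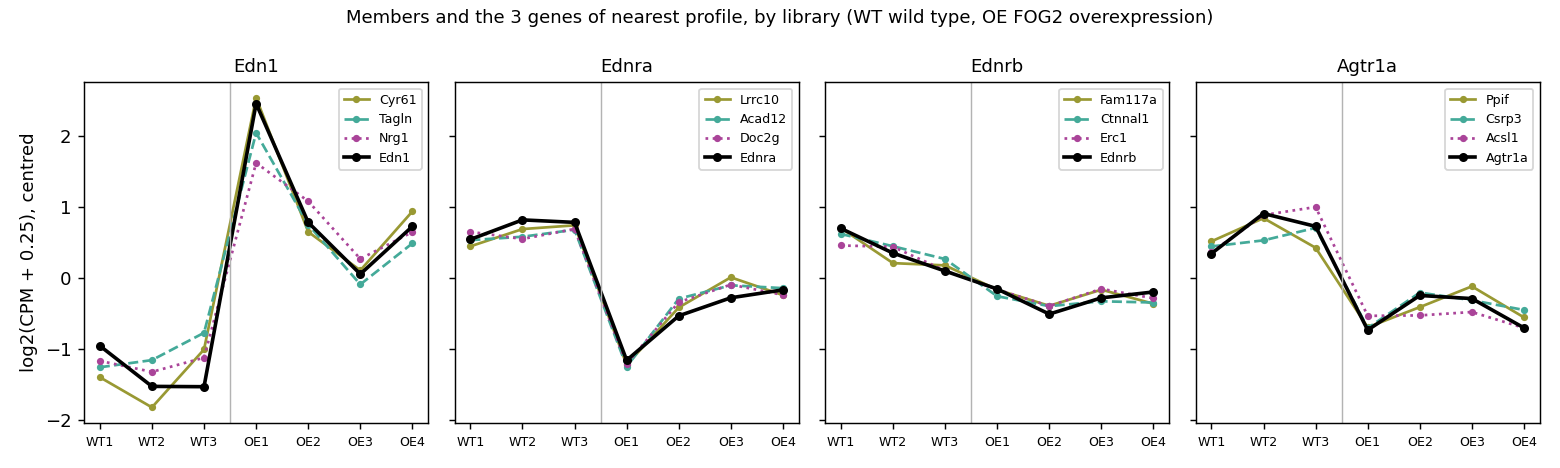
Log2(CPM + 0.25), centred on each gene's mean (y axis), in the 7 libraries (x axis, which have no order within a group) for Edn1, Ednra, Ednrb and Agtr1a (black) and the 3 genes nearest to each (colours). Edn1 and Cyr61 peak together in overexpression replicate 1, and Ednra and its neighbours are lowest there.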

How the data were processed

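The deposited values are whole-number counts per gene symbol, 1 column per library, and all 7 columns were matched to samples by name. Per the submitters' processing notes, STAR, HTSeq 0.6.0, DESeq2 and the mm10 build were used, with no roles stated. The last rows of the table, which name no gene and held 66.9% to 72.2% of the total (no feature, several places, ambiguous), entered neither library sizes nor tests. The labels name polyA selection and the protocol ribosomal RNA removal, and the strand setting is not given in the sources used here. The labels do not say that libraries are separate animals. Y-linked transcripts, found in 1 library of each group, show that each group held more than 1 animal. Whether every library is its own animal is not given, so p-values measure the spread between libraries, which may be technical in part.

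Genes were filtered with filterByExpr (minimum count 10, minimum total 15), scaled with TMM and tested on all 7 libraries with edgeR 4.0.16 in R 4.3.3 (quasi-likelihood F test, robust, two-sided, Benjamini-Hochberg over 13295 genes, threshold 0.05). The standard error is the log2 fold change over the root of F. Log2 CPM used a prior count of 2, and the receptor ratio 0.5 added to each count. The fit was tested on simulated data with the same dispersion for every gene and no library set apart, which does not cover a library like overexpression replicate 1. Alternatives used limma 3.58.1 and DESeq2 1.42.0, other scalings and filters, covariates and each library left out. Exon lengths came from GENCODE M21, matched by symbol for 95.8% of rows.

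The members and lists were chosen with earlier results of these data known. Named were all members, Zfpm2, up to 8 called genes of smallest p in each of 3 pathway lists, and for Edn1 and each called member the 3 nearest profiles among genes with a mean of at least 1 CPM. One gene of the pathway lists is not reported here and stayed in the counts. The replicate numbers in the titles did not pair the libraries (correlation of deviations 0.0136 to 0.0789).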

Additional observations from a re-analysis of the deposited data

Results flagged for a closer look

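Among the 13 values checked in the 4 overexpression libraries, 3 had a library set apart from the rest by more than Dixon's 95% critical value for 4 samples, which chance alone passes in about 1 group in 20. In all 3 this was overexpression replicate 1. For Edn1 it held 50.9 CPM against 15.7 in the next library, a gap of 0.847 of the group's range. For Mas1 it held 4.0 against 2.68 CPM, a gap of 0.846. The log2 ratio of Ednra to Ednrb was -3.05 there and -2.06 in the next library, a gap of 0.947.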

How the results depend on the processing

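Edn1 kept its direction in all 19 alternatives and changed side of the threshold in 10 of them. Its log2 fold change was 2.84 with library totals only, 3.18 scaled to the sarcomere list, 2.71 with DESeq2 and with no robust dispersions, 2.62 with the replicate block, 2.52 with Y-linked transcripts as covariate, and 1.85 in libraries without Y-linked transcripts; each of these called 1 member higher. Ednrb was not called with library totals only (-0.57) or sarcomere scaling (-0.26), nor Agtr1a with the latter (-0.74), which left 1 member lower (Ednra). Agt, near 0, turned positive with library totals only (0.084), sarcomere scaling (0.39), limma-voom (0.026) and in libraries without Y-linked transcripts (0.52). Of the other pathway genes 3 were higher with sarcomere scaling, 0 with the replicate block, and 0 higher and 1 lower without Y-linked libraries. Over all genes the median, 0.02, was 0.15 with library totals only and 0.46 with sarcomere scaling, and calls that were higher made up 32.0%, 60.2% and 94.0% of all calls in the 3 fits. Calls took in 4.84% of genes, 21.9% with sarcomere scaling, 7.45% with DESeq2, 2.87% with the replicate block and 1.90% to 8.73% with a library left out.

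With each library left out, members called higher numbered 0 to 1, members called lower 0 to 3 (0 with wild type replicate 2 out, 1 with wild type replicate 3 out) and other genes called higher 0 to 1. Log2 fold changes ranged from 1.94 to 2.96 for Edn1, -1.36 to -1.04 for Ednra, -0.82 to -0.51 for Ednrb, -1.34 to -1.07 for Agtr1a, -0.39 to 0.32 for Agt and -0.04 to 0.80 for Ace. The sign of Agt was positive without wild type replicates 2 (0.32) and 3 (0.02) and overexpression replicates 1 (0.16) and 3 (0.03), and Ace was negative (-0.036) without wild type replicate 3. A fit with fewer libraries has less power; the cause of other changes was not tested. The receptor ratio kept its direction in all 10 alternatives (-0.84 to -0.34). Edn3 and Mas1 are limited by depth.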

Other observations

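Ace was highest within each group in the library that held Y-linked transcripts, at 176 CPM in wild type replicate 2 and 159 CPM in overexpression replicate 1. With 1 such library per group this is a description of those libraries. Adjusted for Y-linked transcripts, the log2 fold change of Ace was 0.41 (edgeR adjusted p = 0.348), and in the 5 libraries without such transcripts it was 0.66 (edgeR adjusted p = 0.143).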
